A study of Mus musculus with 12 samples.

Results

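The regions described here are the ordinary H3K4me3 sites of mouse embryonic fibroblasts (MEFs) that lie away from H3K27me3. Trimethylated lysine 4 of histone H3 (H3K4me3) was mapped by chromatin immunoprecipitation with sequencing (ChIP-seq), and overlapping peaks of the 4 H3K4me3 lists were joined into 16628 regions. A region was kept when it was under 5000 bp wide, had a peak in all 4 lists, and had no peak of trimethylated lysine 27 (H3K27me3) in any list overlapping it or within 5000 bp. The rule kept 9249 regions, which is 55.6% of all joined regions and 70.6% of the 13107 regions found in all 4 lists. Presence, width and distance to H3K27me3 chose these regions, so the regions were chosen by the same peak lists that are described here. Their values are a description, and no test was made on them.

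The cells were primary MEF cultures of a hybrid 129/B6 background, either lincRNA-p21-/- (KO) or lincRNA-p21+/+ (WT), and each genotype was mock treated or given doxorubicin, labelled as 0.5 mM for 24 h. The unit of this dose is as labelled and could not be checked, and a micromolar dose may be meant. LincRNA-p21 is a long noncoding RNA under the control of p53, and doxorubicin is a DNA-damaging drug that activates p53. The 4 conditions are called KO doxorubicin, KO mock, WT doxorubicin and WT mock below. Each condition had 1 H3K4me3 library and 1 H3K27me3 library, and the number of embryos or cultures behind a library is not given in the sources used here. No difference between conditions therefore has a replicate check, and read depth, which the lists do not give, cannot be told apart from condition.

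H3K4me3 is laid down by the SET1 and MLL methyltransferase complexes around the transcription start sites of active genes, and it is typically found at promoters with CpG islands. H3K27me3 is laid down by Polycomb repressive complex 2, and places with both marks are often called bivalent and are frequent at genes of developmental regulators. Regions with H3K4me3 and no H3K27me3 are the kind usually seen at the promoters of broadly expressed genes, where the mark flanks a nucleosome-depleted start site. No gene annotation of the files' genome build was used, so the regions are given by position only and whether each is a promoter was not tested.

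The H3K4me3 lists held 15095 peaks in KO doxorubicin, 14326 in KO mock, 16477 in WT doxorubicin and 14897 in WT mock cells, and the H3K27me3 lists held 16160 to 17828. The deposited score of a peak is −10 log10 of its p-value, it is not under 80 in any list, and it piles up at 3100, with a few values up to 3233.06. Scores of 3100 or more were treated as equal and are called the ceiling below. Gaps in the running numbers of the peaks show how many are not listed, which was 39.0 to 47.2% for H3K27me3 and 6.83 to 10.3% for H3K4me3. "Without H3K27me3" thus means without a listed peak scored 80 or more, and fainter H3K27me3 was not tested.

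Of the 12567 regions under 5000 bp present in all 4 lists, 1897 were left out because an H3K27me3 peak overlapped them and 1421 because one lay within 5000 bp. A further 1788 regions met the width and distance limits but were present in only 1 to 3 lists. The regions kept made up most of each H3K4me3 list. They held 63.1% of the peaks and 68.3% of the covered bases in KO doxorubicin, 66.9% and 69.3% in KO mock, 58.7% and 62.6% in WT doxorubicin, and 62.5% and 65.5% in WT mock cells. Just inside the width limit were regions of 4991, 4987 and 4981 bp on chromosomes 12, 19 and 7, and just outside it were regions of 5000, 5002 and 5004 bp on chromosomes 5, 14 and 3. Just inside the distance limit were regions 5005, 5006 and 5008 bp from H3K27me3 on chromosomes 4, 8 and 5. Regions 4991, 4985 and 4968 bp from it on chromosomes 2, 4 and 8 were left out.

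The joined regions were 561 to 4991 bp wide with a median of 2417 bp and quartiles of 1880 and 3090 bp. The commonest width was 2000 to 2500 bp, with 2127 regions (23.0%). Only 66 regions (0.714%) were under 1000 bp, and 248 (2.68%) were 4500 bp or more. The widest was at chr12:11271132-11276122, where the peaks spanned 4630 bp in KO doxorubicin, 4610 bp in KO mock, 3435 bp in WT doxorubicin and 4785 bp in WT mock cells. The next widest lay on chr19:23214105-23219091 and chr7:16631102-16636082, and all 3 were at the score ceiling in the 4 lists. They were followed by chr5:65778964-65783936 and chrX:148234931-148239895. The region on X was not at the ceiling, with scores of 2019.83 in KO doxorubicin, 935.98 in KO mock, 1315.65 in WT doxorubicin and 2320.95 in WT mock cells.

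The narrowest region was at chr2:177812523-177813083, with peaks of 479 bp in KO doxorubicin, 490 bp in KO mock, 419 bp in WT doxorubicin and 561 bp in WT mock cells. Its scores were 232.22 in KO doxorubicin, 108.77 in KO mock, 92.79 in WT doxorubicin and 143.98 in WT mock cells, which placed it at or under percentile 5.20 of the regions in every list. The other narrow regions were chr2:34494466-34495134, chr18:74023168-74023866, chr2:30548807-30549508 and chr1:83156051-83156781. Their scores lay between 85.98 and 430.49.

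Within the same regions, the peaks were widest in WT mock cells and narrowest in KO mock cells, and the 2 doxorubicin lists lay between them with nearly equal medians. The median width was 2052 bp in KO doxorubicin (quartiles 1575 and 2649), 1934 bp in KO mock (1467 and 2511), 2054 bp in WT doxorubicin (1519 and 2712) and 2250 bp in WT mock cells (1740 and 2895). WT mock had the widest peak at 5187 regions (56.1%) and the narrowest at 369 (3.99%). KO mock had the widest at 791 (8.55%) and the narrowest at 4312 (46.6%). The spread within a region was small, since the widest list exceeded the narrowest by a median of 1.27-fold. It was at least 2-fold at 289 regions.

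**Figure D1:**
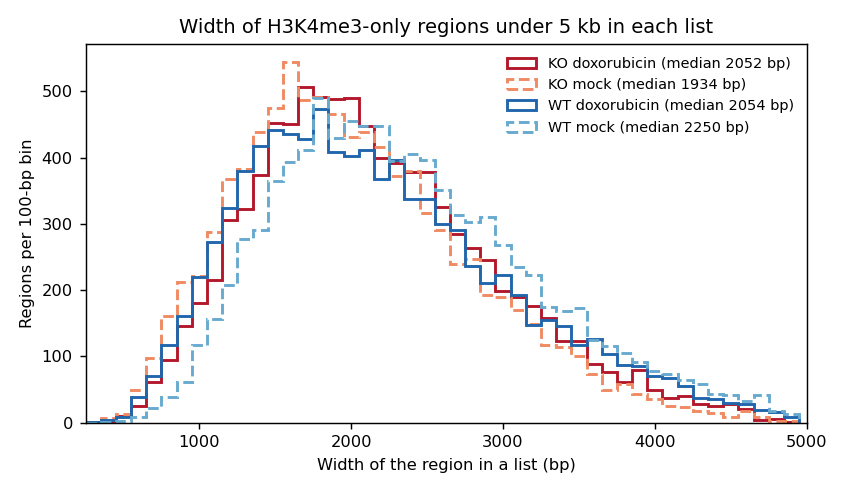
Histogram of the width of the 9249 regions in each list, in bins along the x axis (bp) with the number of regions on the y axis; solid lines are doxorubicin and broken lines mock. The WT mock curve (median 2250 bp) is shifted to the right and the KO mock curve (median 1934 bp) to the left of the 2 doxorubicin curves.

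Doxorubicin against mock asked where DNA damage altered the mark, and the width differences had opposite signs in the 2 genotypes. In KO cells the regions were wider with doxorubicin, with a median log2 width ratio of 0.08 (quartiles −0.04 and 0.21) and a median difference of 108 bp. In KO cells 6213 regions (67.2%, exact 95% binomial interval 66.2 to 68.1) were wider and 3025 were narrower. This interval, like the others below, covers counting error over regions only. In WT cells the regions were narrower with doxorubicin, with a median log2 ratio of −0.14 (quartiles −0.27 and −0.01) and a median difference of −199 bp. In WT cells 2147 regions (23.2%, 22.4 to 24.1) were wider and 7095 were narrower. Over all 13107 regions of the 4 lists the medians were 0.06 in KO and −0.12 in WT cells.

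Differences past 1.5-fold were few. In KO cells 296 regions (3.20%) were wider past 1.5-fold with doxorubicin, against a background of 3.18% over all regions of the 4 lists, and 42 (0.454%) were narrower, against 1.07%. In WT cells 47 (0.508%) were wider, against 0.702%, and 345 (3.73%) were narrower, against 3.32%. Since width is part of the rule, the shares describe the lists only.

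The second question was how the mark differed without lincRNA-p21. In doxorubicin-treated cells the regions had nearly the same width in KO as in WT, with a median log2 ratio of 0.01 (quartiles −0.14 and 0.16) and a median difference of 20 bp. KO was wider at 4904 regions (53.02%, 52.0 to 54.0) and narrower at 4335. Over all 13107 regions of the 4 lists the sign was the other way, with a median log2 ratio of −0.02 and KO wider at 6084 regions (46.4%) and narrower at 7008. In mock cells the regions were narrower in KO, with a median log2 ratio of −0.21 (quartiles −0.37 and −0.07) and a median difference of −300 bp. KO was wider at 1450 regions there (15.7%, 14.9 to 16.4) and narrower at 7793. Over all regions of the 4 lists the median log2 ratio in mock cells was −0.22, with KO wider at 14.4%. Past 1.5-fold, KO doxorubicin was wider than WT doxorubicin at 242 regions (2.62%, background 2.15%) and narrower at 293 (3.17%, background 6.70%). KO mock was wider than WT mock at 22 regions (0.238%, background 0.252%) and narrower at 804 (8.69%, background 11.0%).

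The 4 comparisons rest on 4 libraries, so each library enters a pair of them. The combination of wider in KO and narrower in WT with doxorubicin was the commonest and held 4725 regions (51.1%). The reverse held 661 (7.15%), while 1483 (16.0%) were wider with doxorubicin in both genotypes and 2362 (25.5%) narrower in both. Neither these combinations nor those between genotypes below were counted over all regions of the 4 lists. Singly, the signs leaned the same way there. With doxorubicin 63.5% of all regions were wider in KO and 26.7% in WT cells, against 67.2% and 23.2% of the H3K4me3-only regions. The doxorubicin ratios of the 2 genotypes, which share no library, were not related across regions (Spearman's rho 0.01 over 9249 regions). The KO over WT ratios in doxorubicin and in mock cells, which also share no library, had a rho of 0.26. All such correlations are descriptions over regions of the same libraries. KO was narrower in both treatments at 3910 regions (42.3%) and wider in both at 1023 (11.1%). It was wider with doxorubicin and narrower in mock cells at 3878 (41.9%).

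Both edges of the regions were displaced by nearly the same distance. With doxorubicin each edge lay a median of 47 bp further out in KO cells, while in WT cells the left edge lay 97 bp and the right edge 98 bp further in. Each edge of KO doxorubicin lay 10 bp further out than that of WT doxorubicin. The KO mock edges lay 142 bp (left) and 140 bp (right) inside those of WT mock. Within a region the displacements of the 2 edges were hardly related, with rho between 0.02 and 0.07 in the 4 comparisons. The centres had a median displacement of 84 to 99.5 bp and under 500 bp at all but 85 to 304 regions.

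The width ratios were set beside those of the other regions found in all 4 lists. The 1437 regions with an H3K27me3 peak within 5 kb that did not overlap them had medians close to those above, at 0.06 for KO doxorubicin over KO mock, −0.13 for WT doxorubicin over WT mock, 0.00 for KO doxorubicin over WT doxorubicin and −0.20 for KO mock over WT mock. The 1948 regions overlapped by H3K27me3 had −0.02 for KO doxorubicin over KO mock, −0.04 for WT doxorubicin over WT mock, −0.31 for KO doxorubicin over WT doxorubicin and −0.35 for KO mock over WT mock. There KO doxorubicin was narrower than WT doxorubicin past 1.5-fold at 470 regions (24.1%). The regions without H3K27me3 had 3.17% in that comparison. The 473 regions of 5000 bp or more without H3K27me3 had medians of 0.06, −0.02, −0.09 and −0.18. With 1 library per condition none of these differences between classes could be tested.

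**Figure D2:**
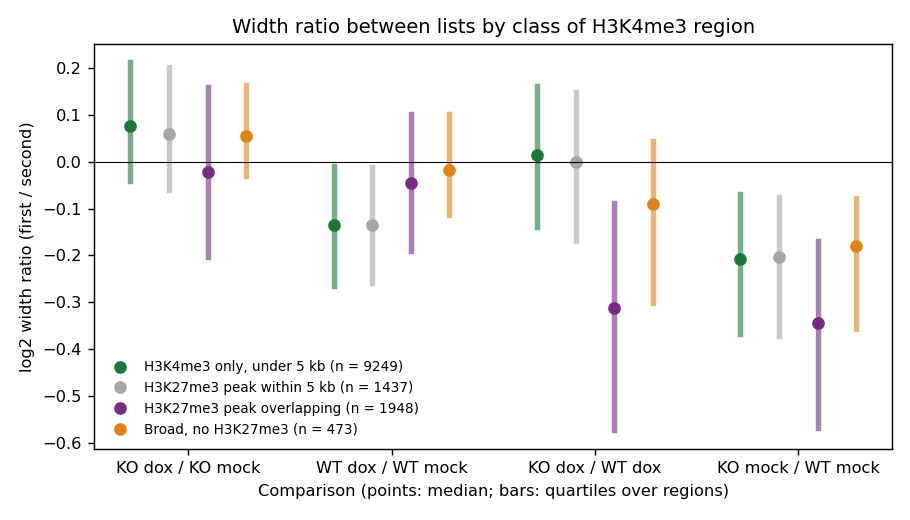
Median log2 width ratio (points) and quartiles over regions (bars) on the y axis for the 4 comparisons on the x axis, by class of region present in all 4 lists. The H3K4me3-only regions lie at 0.08 and −0.14 for doxorubicin against mock in KO and WT cells, and at 0.01 for KO against WT with doxorubicin, where the regions overlapped by H3K27me3 lie at −0.31.

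Past 1.5-fold, 5 regions (0.0541%, background 0.0763%) were wider and 11 (0.119%, background 0.130%) were narrower with doxorubicin in both KO and WT cells. Another 35 (0.378%, background 0.298%) were wider in KO and narrower in WT. The largest shared widening was at chr4:129724048-129727336, with 2724 bp in KO doxorubicin against 1563 bp in KO mock, and 3289 bp in WT doxorubicin against 1855 bp in WT mock. Both doxorubicin widths stood above both mock widths there, which the ranking by both ratios favours. The next was a small region at chr7:7161808-7162921, with 979 bp in KO doxorubicin against 591 bp in KO mock, and 1091 bp in WT doxorubicin against 675 bp in WT mock cells. The region at chr5:74590413-74594151 had 3570 bp in KO doxorubicin against 2337 bp in KO mock, and 3464 bp (2 peaks) in WT doxorubicin against 2043 bp in WT mock cells. The others were chr2:32277594-32279833 and chr2:119797375-119801508. The last of them was also narrower in KO than in WT, with a log2 ratio of −1.03 in each treatment.

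The largest shared narrowing was at chr13:63373589-63378485. Its peaks spanned 951 bp in KO doxorubicin against 3077 bp in KO mock, and 1959 bp in WT doxorubicin against 4897 bp in WT mock cells. The KO mock span held 2 peaks, and another H3K4me3-only region lay 529 bp away. Its scores were 107.85 in KO doxorubicin, 330.32 in KO mock, 330.09 in WT doxorubicin and 1555.23 in WT mock cells, each on the scale of its own list. Next came chr12:36215964-36220298, with 1400 bp in KO doxorubicin against 3288 bp in KO mock, and 2323 bp (2 peaks) in WT doxorubicin against 4335 bp in WT mock cells. This region scored 1937.76 in KO doxorubicin, 1336.35 in KO mock, 2483.36 in WT doxorubicin and 3100 in WT mock cells. The region at chr15:76287541-76290438 had 1124 bp in KO doxorubicin against 2089 bp in KO mock, and 1393 bp in WT doxorubicin against 2889 bp in WT mock cells. Those at chr19:34736329-34737290 and chr5:142915915-142917643 had scores of at most 185.22 in every list.

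Between genotypes, 13 regions (0.141%, background 0.130%) were wider in KO past 1.5-fold in both treatments and 136 (1.47%, background 3.20%) were narrower. The largest shared widening was at chr7:82925764-82927708, with 1945 bp in KO doxorubicin against 840 bp in WT doxorubicin, and 1697 bp in KO mock against 859 bp in WT mock cells. The KO and WT widths did not overlap there, which the ranking by both ratios favours. A region at chr3:88419982-88423800 had 3793 bp in KO doxorubicin against 913 bp in WT doxorubicin, and 2749 bp in KO mock against 1580 bp in WT mock cells. Its scores stood at 1987.54 in KO doxorubicin and 747.61 in KO mock, and at 192.72 in WT doxorubicin and 204.45 in WT mock cells. The others were chr3:50245713-50248187, chr4:134066638-134068346 and chr17:8357765-8359362.

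The largest shared narrowing in KO was at chr5:115938618-115940603, with 774 bp in KO doxorubicin against 1838 bp in WT doxorubicin, and 716 bp in KO mock against 1986 bp in WT mock cells. Its KO scores were 295.31 with doxorubicin and 86.51 in mock cells, the latter near the lowest score listed. Chromosome 2 from 118488539 to 118491510 had 688 bp in KO doxorubicin against 2672 bp in WT doxorubicin, and 910 bp in KO mock against 2036 bp in WT mock cells, and its KO scores were 91.89 with doxorubicin and 90.98 in mock cells, where the lists start at 80. Chromosome 9 from 21299608 to 21302191 had 969 bp in KO doxorubicin against 2136 bp (2 peaks) in WT doxorubicin, and 975 bp in KO mock against 2437 bp in WT mock cells. The next, chr6:72499113-72501767, had 706 bp in KO doxorubicin against 2655 bp in WT doxorubicin, and 794 bp in KO mock against 1711 bp in WT mock cells. Its KO scores were also low, at 90.31 with doxorubicin and 107.78 in mock cells. At each of these regions both KO widths were under both WT widths, which the ranking by both ratios favours. The share of all regions with such widths was not counted. The last, chr2:104580854-104583740, scored higher than the other 4 in every list. It had 1189 bp in KO doxorubicin against 2698 bp in WT doxorubicin, and 1207 bp in KO mock against 2598 bp in WT mock cells, with scores of 2002.04 in KO doxorubicin, 965.92 in KO mock, 1670.2 in WT doxorubicin and 1594.97 in WT mock cells.

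The peak of a region was split at the fewest regions in WT mock cells. More than 1 peak was listed at 278 regions (3.01%) in KO doxorubicin, 336 (3.63%) in KO mock, 412 (4.45%) in WT doxorubicin and 56 (0.605%) in WT mock cells. Over all 13107 regions of the 4 lists the shares were 3.91%, 4.65%, 4.94% and 1.02% in the same order. WT mock was thus lowest there too. Of the 412 split regions of WT doxorubicin, 229 (55.6%) had a single peak in each of the other 3 lists. The gaps were short, with medians of 95 bp in KO doxorubicin, 114 bp in KO mock, 87 bp in WT doxorubicin and 74 bp in WT mock cells. Splits were commonest in wide regions, reaching 11.6% of the widest 1850 regions in WT doxorubicin against 1.78% in WT mock cells. In all, 8501 regions (91.9%) had 1 peak in every list and 10 were split in all 4.

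Wider regions had higher scores within every list. Across the 9249 regions Spearman's rho between width and score was 0.73 in KO doxorubicin, 0.79 in KO mock, 0.78 in WT doxorubicin and 0.80 in WT mock cells. Both quantities come from the same reads. The regions were split by width into 5 groups of nearly equal size. In the narrowest group (561 to 1766 bp) the median score was 906.52 in KO doxorubicin, 440.81 in KO mock, 679.45 in WT doxorubicin and 581.13 in WT mock cells. In the widest group (3273 to 4991 bp) it was 2618.72 in KO mock and 3100 in each of the other 3 lists. A median of 3100 means that at least 50% of those regions were at the ceiling.

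The width ratios differed with region width in some comparisons. The median log2 ratio of WT doxorubicin over WT mock was −0.20 in the narrowest group and −0.07 in the widest. In bp the median difference was −174 in the narrowest and −167.5 in the widest group. KO doxorubicin over WT doxorubicin had 0.06 in the narrowest group and −0.05 in the widest, so the sign differed between the ends of the width range. KO doxorubicin over KO mock stayed between 0.06 and 0.09, and KO mock over WT mock between −0.23 and −0.20. In bp the KO mock difference was larger in wide regions, with a median difference of −200 bp in the narrowest and −474.5 bp in the widest group.

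**Figure D3:**
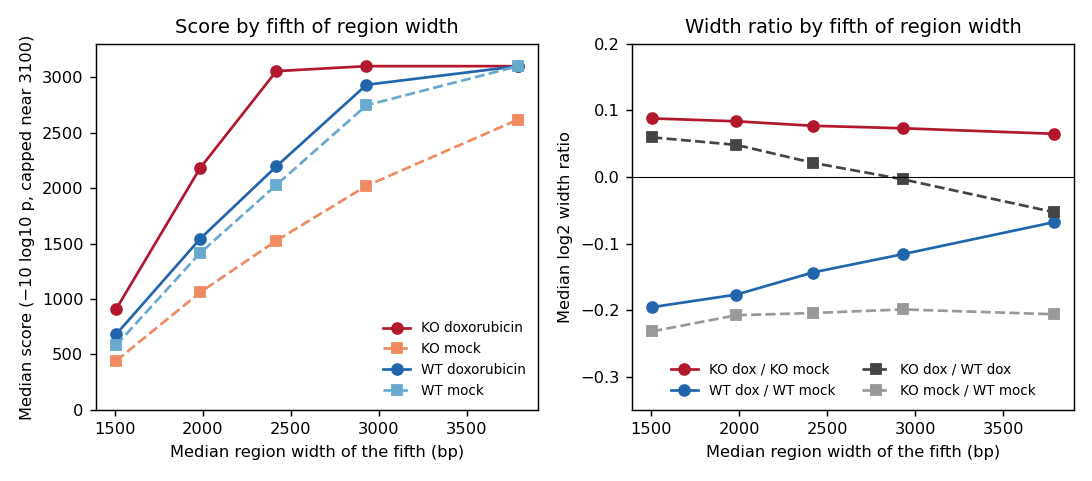
Left, median score (y axis, −10 log10 p, with a ceiling at 3100) in each list against the median region width of each of 5 equal groups of the 9249 regions (x axis, bp); right, median log2 width ratio of the 4 comparisons on the same x axis. Scores are higher in wider groups up to the ceiling, and the KO doxorubicin over WT doxorubicin ratio passes from 0.06 in the narrowest group to −0.05 in the widest.

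Within their own list most of these regions scored above the median peak. The share scored above the median of its list was 64.2% in KO doxorubicin, 60.1% in KO mock, 65.3% in WT doxorubicin and 62.0% in WT mock cells. A peak in all 4 lists is part of the rule, and a region takes its highest peak score. The shares are therefore a description only. Over all 13107 regions of the 4 lists the median score also exceeded that of the list. It was 2559.51 against 2140.57 in KO doxorubicin and 1286.06 against 1161.87 in KO mock cells. In WT doxorubicin it was 1980.23 against 1525.89, and in WT mock cells 1757.65 against 1511.79. The median score of the H3K4me3-only regions was 2872.21 in KO doxorubicin, 1430.34 in KO mock, 2087.61 in WT doxorubicin and 1931.77 in WT mock cells. At the ceiling were 4227 regions (45.7%) in KO doxorubicin, 796 (8.61%) in KO mock, 2440 (26.4%) in WT doxorubicin and 2010 (21.7%) in WT mock cells. The background over all 13107 regions of the 4 lists was 40.7% in KO doxorubicin, 8.79% in KO mock, 25.1% in WT doxorubicin and 20.5% in WT mock cells. Score levels differ between whole lists too, with 35.4% of all peaks at the ceiling in KO doxorubicin, 8.05% in KO mock, 20.0% in WT doxorubicin and 18.1% in WT mock, so the levels are not read as a change. Under 100 were 17 of the 9249 regions in KO doxorubicin (73 of all 13107), 99 in KO mock (196), 25 in WT doxorubicin (31) and 34 in WT mock cells (59). At the ceiling in all 4 lists were 773 regions (8.36%) with a median width of 3749 bp, and at the ceiling in none were 4956 (53.6%) with a median of 1953.5 bp.

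Lists differ in length and level, so each region was ranked by score among the 13107 regions of the 4 lists, within each list, and the rank was written as a percentile. Regions tied at the ceiling share a percentile of 79.6 in KO doxorubicin, 95.6 in KO mock, 87.5 in WT doxorubicin and 89.7 in WT mock cells. The regions without H3K27me3 had median percentiles of 55.5 in KO doxorubicin, 55.0 in KO mock, 52.9 in WT doxorubicin and 54.5 in WT mock cells. Those overlapped by H3K27me3 had 14.5 in KO doxorubicin, 17.9 in KO mock, 29.4 in WT doxorubicin and 21.7 in WT mock cells.

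The median percentiles differed little between conditions. The median difference was 0.67 points for KO doxorubicin against KO mock, −2.27 for WT doxorubicin against WT mock, 2.84 for KO doxorubicin against WT doxorubicin and 1.10 for KO mock against WT mock. Single regions differed more, with quartiles of −6.08 and 7.12, −5.32 and 2.77, −7.81 and 10.8, and −4.96 and 5.87 in that order. For KO against WT with doxorubicin, the autosomal median was 5.48 in the narrowest of the 5 width groups and −7.81 in the widest. On X it was 4.66 and 8.03. The value of −7.81 is that of a region at the ceiling in both doxorubicin lists. The value of −2.27 is that of a region at the ceiling in both WT lists. Among the 4956 regions under the ceiling in all 4 lists the medians were 0.65, −1.58, 4.04 and 1.27. The 1728 regions overlapped by H3K27me3 and under the ceiling had −3.40, 5.61, −11.4 and −2.23 points. All 7587 regions under the ceiling had −0.43, −0.06, 1.35 and 0.47. Ranks within a fixed set balance as a mean over the whole set, but medians of a part of it need not.

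Differences of at least 20 points were counted with their background over all regions of the 4 lists. With doxorubicin in KO cells 477 regions (5.16%, background 4.51%) stood higher and 44 (0.476%, background 0.954%) lower. In WT cells 147 (1.59%, background 3.14%) stood higher and 243 (2.63%, background 2.20%) lower. In KO against WT with doxorubicin, 803 (8.68%, background 7.24%) stood higher and 174 (1.88%, background 6.28%) lower. In mock cells 208 (2.25%, background 1.96%) stood higher and 241 (2.61%, background 3.02%) lower. Among the 4956 regions under the ceiling in all 4 lists the balance in KO cells turned, with 23 higher and 32 lower with doxorubicin. In WT cells 42 of them stood higher with doxorubicin and 105 lower. In KO against WT 158 stood higher and 114 lower with doxorubicin, and 110 higher and 93 lower in mock cells. The background among all regions under the ceiling was not counted, so these last counts describe the H3K4me3-only regions alone.

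With doxorubicin 13 regions (0.141%, background 0.175%) stood at least 20 points higher and 5 (0.0541%, background 0.0687%) lower in both genotypes. The leading one of the 13 was at chr11:102290235-102294514, at percentiles of 79.6 in KO doxorubicin against 51.0 in KO mock, and 87.5 in WT doxorubicin against 60.8 in WT mock cells. It was at the ceiling in both doxorubicin lists, as were chr11:88860186-88864481, chr2:11421567-11425353 and chr5:114580233-114582265. The next, chr19:4199183-4202647, stood at 79.6 in KO doxorubicin against 41.8 in KO mock, and 70.1 in WT doxorubicin against 48.2 in WT mock cells. Its distance to the nearest region of the same kind was 5259 bp.

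The leading one of the 5 lower regions was at chr3:84281960-84285283, at 51.4 in KO doxorubicin against 85.4 in KO mock, and 64.2 in WT doxorubicin against 89.7 in WT mock cells. It was followed by chr17:25022237-25025185, at 59.1 in KO doxorubicin against 89.9 in KO mock, and 66.8 in WT doxorubicin against 89.7 in WT mock cells, and by chr15:58911003-58914350, at 43.4 in KO doxorubicin against 84.9 in KO mock, and 68.5 in WT doxorubicin against 89.7 in WT mock cells. The other lower regions, chr3:113732598-113736336 and chr3:129671774-129674013, were under the ceiling in every list. The last of them had percentiles of 32.5 in KO doxorubicin against 55.6 in KO mock, and 25.5 in WT doxorubicin against 45.6 in WT mock cells.

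Along the chromosomes the regions were spaced by a median of 74.97 kb from the end of one to the start of the next. The quartiles were 27063.5 and 222943 bp, and the mean of 275.3 kb was far above the median. Of 9223 distances 90 (0.976%) were under 1 kb, 1000 (10.8%) under 10 kb and 5245 (56.9%) under 100 kb, and the longest was 11.6 Mb. Over all 13107 regions of the 4 lists the median was 60.1 kb, and 11.9% of the distances were under 10 kb. The 1948 regions overlapped by H3K27me3 were spaced by a median of 534.1 kb among themselves. They are fewer, and distances within a class are longer when it holds fewer regions. For the H3K4me3-only regions the nearest H3K4me3 region of any kind was a median of 26390 bp away. It was of the same kind for 6198 of them (67.03%). This kind made up 55.6% of all 16628 joined regions and 70.6% of those in all 4 lists.

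**Figure D4:**
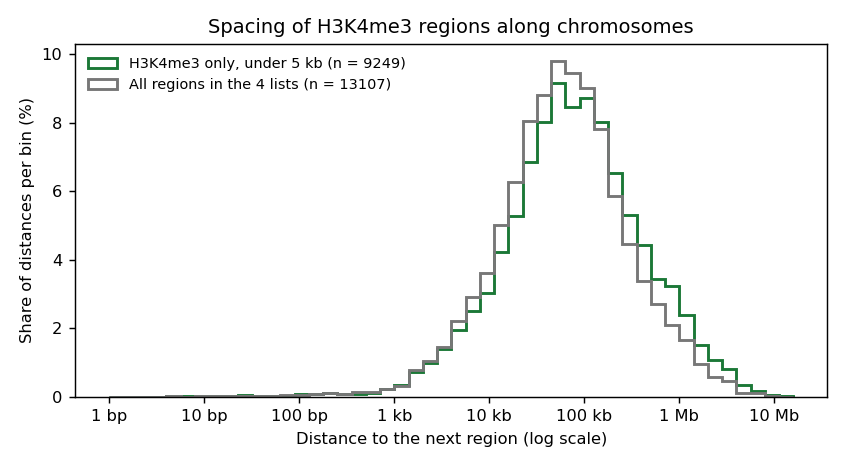
Share of distances per bin (y axis, %) by the distance from the end of a region to the start of the next (x axis, log scale), for the 9249 H3K4me3-only regions and for all 13107 regions of the 4 lists. Both curves have a single hump, with medians of 74.97 kb and 60.1 kb. Under 10 kb lie 10.8% of the distances between H3K4me3-only regions and 11.9% of those between all regions.

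The closest neighbours were a few bases apart. The smallest distance was 4 bp on chromosome 5, between regions from 24345680 to 24348649 and from 24348654 to 24350035. The first was strong and the second weak, with scores of 3100 and 189.73 in KO doxorubicin, 2728.99 and 149.58 in KO mock, 3100 and 530.38 in WT doxorubicin, and 3100 and 314.97 in WT mock cells. The next pairs were 7 bp apart on chromosome 7, 8 bp on chromosome 11, 12 bp on chromosome 9 and 13 bp on chromosome 8. Each of these 5 pairs had a stronger and a weaker member in every list, and joining peaks less than 1000 bp apart would make each pair 1 region.

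Runs of regions spaced under 10 kb held 1800 regions (19.5%) in 800 runs, of which 651 were pairs and 149 had 3 or more. The longest run was at chr7:19876071-19932874, with 8 regions in 56.8 kb. It was made of weak and narrow regions, with a median region width of 1457.5 bp and median scores of 456 in KO doxorubicin, 152.17 in KO mock, 268.1 in WT doxorubicin and 193.59 in WT mock cells. A run of 6 lay at chr13:22117723-22143976, in 26.3 kb, with distances of 125 to 4500 bp. Its regions were narrow in KO mock cells, with a median log2 ratio of 0.41 for KO doxorubicin over KO mock and −0.56 for KO mock over WT mock. A second run of 6, at chr19:6045095-6086171, was strong, with a median score of 3100 in KO doxorubicin and 1974.78 in KO mock cells. Among the 9 runs of 5 were chr10:79622655-79643218 and chr13:23514667-23542880, first by chromosome name. The run on chromosome 10 also had narrow KO mock peaks, with median log2 ratios of 0.46 for KO doxorubicin over KO mock and −0.81 for KO mock over WT mock, and a median score of 121.25 in KO mock cells.

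The width differences of neighbouring regions were at most weakly related. Across 9223 neighbour pairs rho between the log2 ratios was 0.00 for KO doxorubicin over KO mock, 0.05 for WT doxorubicin over WT mock, 0.03 for KO doxorubicin over WT doxorubicin and −0.02 for KO mock over WT mock. Among the 1000 pairs under 10 kb apart it was 0.05, 0.07, 0.11 and 0.04. A weak correlation of this size is not a finding.

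Per 1 Mb window the regions were unevenly spread, with 33 in the densest window and a median of 3 in the 1887 windows that held any. The 244 windows with 10 or more held 3542 regions (38.3%). The densest were chr10:79000001-80000000 with 33, chr7:134000001-135000000 with 30, and chr10:80000001-81000000, chr19:4000001-5000000 and chr19:5000001-6000000 with 29 each. In that order these windows held 48, 39, 42, 37 and 40 regions of the 4 lists of any kind. H3K4me3 regions as a whole were thus crowded there, and 70.6% of them genome-wide were H3K4me3-only regions under 5 kb. In all 5 windows KO mock was narrower than WT mock and WT doxorubicin narrower than WT mock by the median log2 ratio, at −0.33 to −0.15 and −0.18 to −0.08. The most isolated region was at chr14:94287859-94291200, 5152.5 kb from the nearest of its kind. It had peaks of 3143 bp in KO doxorubicin, 2369 bp in KO mock, 3312 bp in WT doxorubicin and 3221 bp in WT mock cells. The next were chr1:113760289-113762054, chr15:18747535-18750652, chrX:126283774-126286023 and chr3:46250899-46252605, at 4272.7 to 3993.1 kb.

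Crowded regions had lower median scores than regions at middle spacing, a difference that was not tested. The 1800 regions within 10 kb of another had a median width of 2258 bp and a median score of 2423.73 in KO doxorubicin, 1185.21 in KO mock, 1751.43 in WT doxorubicin and 1609.86 in WT mock cells. The 5209 regions 10 to 100 kb from the nearest had 2442 bp and scores of 3002.99 in KO doxorubicin, 1496.17 in KO mock, 2169.39 in WT doxorubicin and 2008.2 in WT mock cells. The 90 regions 1 Mb or more from the nearest were again lower, at 2324 bp and scores of 2523.52 in KO doxorubicin, 1186.38 in KO mock, 1756.17 in WT doxorubicin and 1749.61 in WT mock cells. Median width ratios hardly differed between these groups, at −0.14 to −0.13 for WT doxorubicin over WT mock and 0.03 to 0.08 for KO doxorubicin over KO mock.

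The nearest H3K27me3 peak lay a median of 58.7 kb away (quartiles 23.8 and 153.9 kb) and at most 11.2 Mb. It was under 10 kb away for 870 regions (9.42%) and more than 1 Mb away for 293 (3.17%). For 13 regions, all on Y or unplaced sequences, no H3K27me3 peak was listed on the same sequence. The 293 regions more than 1 Mb from H3K27me3 had the lowest scores of the 4 distance groups, with median scores of 1638.88 in KO doxorubicin, 796.29 in KO mock, 1184.15 in WT doxorubicin and 1066.85 in WT mock cells. Regions 20 to 100 kb away had 3020.28 in KO doxorubicin, 1502.44 in KO mock, 2183.64 in WT doxorubicin and 2027.13 in WT mock cells. X regions, described below, lay a median of 588.3 kb away and scored lower than autosomal ones. The distance groups are not split by chromosome here, and the score difference between them was not tested. The median width ratios had the same signs in all 4 distance groups, at 0.07 to 0.10 for KO doxorubicin over KO mock and −0.18 to −0.12 for WT doxorubicin over WT mock.

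The width differences were found along all chromosomes. The median log2 ratio was above 0 on 20 of 20 chromosomes (19 autosomes and X) for KO doxorubicin over KO mock, at 0.06 to 0.13. It was under 0 on 20 of 20 for WT doxorubicin over WT mock, at −0.19 to −0.11, and likewise for KO mock over WT mock, at −0.25 to −0.17. For KO doxorubicin over WT doxorubicin it was above 0 on 18 and under 0 on chromosomes 10 and 19, at −0.02 to 0.06. Counts ranged from 261 regions on chromosome 18 to 726 on chromosome 11, and density from 2.37 per Mb on X to 6.12 per Mb on chromosome 11, measured from the first to the last H3K4me3 region. Chromosome 19 was next at 5.39 per Mb. Its median spacing was 50.01 kb, against 51.5 kb on chromosome 11, 49.1 kb on chromosome 7 and 125.4 kb on X.

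**Figure D5:**
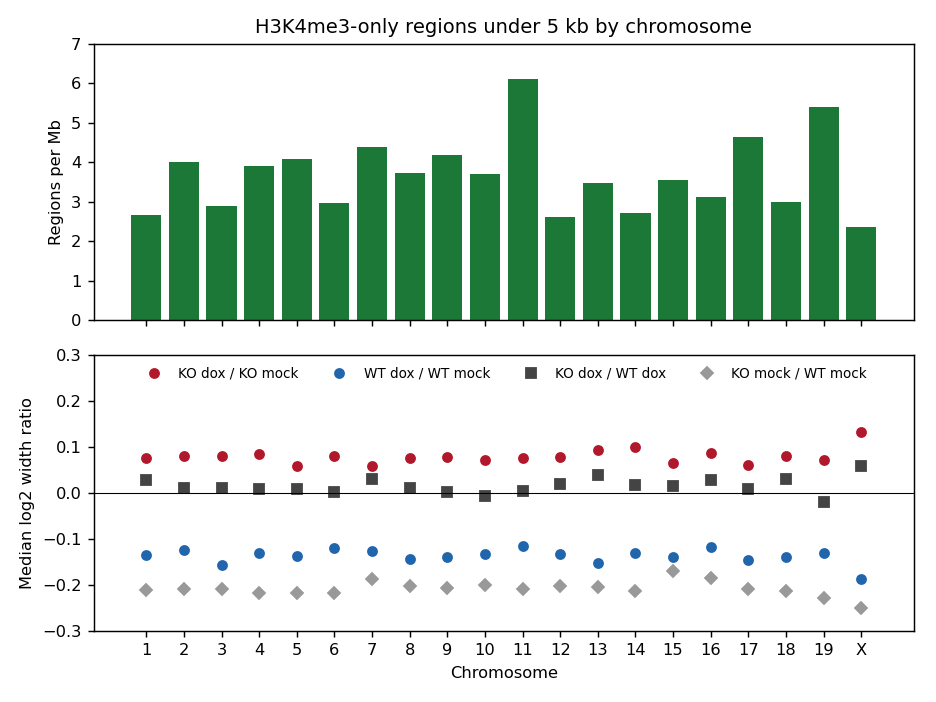
Top, H3K4me3-only regions per Mb (bars, y axis from 0) on each autosome and X (x axis); bottom, median log2 width ratio of the 4 comparisons on the same chromosomes (points). Chromosome 11 is the densest at 6.12 per Mb, and the ratios of KO doxorubicin over KO mock lie above 0 and those of both comparisons with WT mock under 0 on every chromosome.

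Chromosome X stood at the end of the range in several measures. Of its 407 regions in all 4 lists, 381 (93.6%) were H3K4me3-only regions under 5 kb, against 64.9 to 74.4% on the autosomes. The X regions were narrower, with a median of 2082 bp on X against 2433 bp on the autosomes. Their scores were lower than those of the autosomes, at 1210.63 against 2980.6 in KO doxorubicin, 572.73 against 1484.15 in KO mock, 858.43 against 2158.27 in WT doxorubicin and 802.23 against 1997.36 in WT mock cells. X regions also lay far from H3K27me3, at a median of 588.3 kb. The lower score held at like width, since in the middle of the 5 width groups X had a median of 749.39 and the autosomes 1549.68 in KO mock cells. The width ratios were farther from 0 on X than on the autosomes in all 4 comparisons, at 0.13 against 0.07 for KO doxorubicin over KO mock, −0.19 against −0.13 for WT doxorubicin over WT mock, 0.06 against 0.01 for KO doxorubicin over WT doxorubicin and −0.25 against −0.21 for KO mock over WT mock. This did not hold at every width. In the narrowest of the 5 width groups the median ratio of KO doxorubicin over KO mock was 0.08 on X against 0.09 on the autosomes, and that of KO doxorubicin over WT doxorubicin was 0.04 on X against 0.06. In the next to widest group KO mock over WT mock was −0.19 on X against −0.20 on the autosomes. With 1 library per condition these differences were not tested. Of the other regions, 3 lay on Y and 13 on unplaced sequences.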

How the data were processed

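ChIP-seq of H3K4me3 and H3K27me3 was made in 4 conditions with 1 library each, giving the 8 peak lists used. Input libraries (4) were left out. The submitters' processing notes name Bowtie 0.12.7, MACS 1.4.2 and build mm9. The deposited scores are on a −10 log10 p-value scale, per the file headers, which is 10 times the −log10 scale. They are the authors' own values, used to describe and rank peaks within a list. Listed peaks score 80 or more. Peak width depends on fragment length, depth and enrichment, and depth is unknown.

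Positions are mm9 and count from 1. An overlap of 1 bp joined peaks. The width of a region in a list runs from the first start to the last end of its peaks, and its score is the highest of them. Widths were compared as log2 ratios and scores as percentiles among regions of the 4 lists. The members and lists were chosen with earlier results of these data known. Regions named are the 5 extremes of each measure (width, distance, runs, windows, and width or percentile differences shared by both comparisons, ranked by the smaller one) and the 3 on each side of a limit. Planned gene lists were not analysed here, since no mm9 annotation was used. Joining, membership, splits, width differences and spacing were checked on 2000 simulated regions, and all 9 numbers put in came back. No simulated region reached the 5000 bp limit, and scores and percentiles were not checked. Alternatives are given at the end. The tools were matplotlib 3.10.9, scipy 1.17.1, pandas 2.3.3, numpy 2.4.6 and Python 3.11.15.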

Additional observations from a re-analysis of the deposited data

Results flagged for a closer look

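The width of the H3K4me3-only regions with doxorubicin against mock had opposite signs in the 2 genotypes, with a median log2 ratio of 0.0768 in KO and −0.136 in WT cells. Each genotype had 1 library per treatment, so this opposite sign was not tested. The KO mock and WT mock lists were the narrowest and the widest, and the medians of the 2 doxorubicin lists were 2052 bp in KO and 2054 bp in WT cells.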

How the results depend on the processing

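No paired analysis was possible because each condition and mark had 1 library and no test was made, and no replicate could be left out. The 4 median log2 width ratios kept their signs under all 8 alternatives each, and the 4 median percentile differences under all 9. The bounds used to judge a move are binomial intervals of the median over regions and are narrow, so small moves are listed. The median percentile difference of WT doxorubicin against WT mock was −2.32 with peaks scored at least 100, −2.29 with peaks under 1000 bp apart joined, −2.34 with an equal number of top peaks per mark (where the KO mock median width was 1955 bp), −1.51 with mean peak scores, −2.45 with 1 peak in each list and −1.58 under the ceiling in all 4 lists. With H3K27me3 overlap as the sole bar, median widths were 2006 bp in KO doxorubicin, 1892 bp in KO mock, 2008 bp in WT doxorubicin and 2205 bp in WT mock, and spacing was 64.6 kb. With no H3K27me3 within 10000 bp spacing was 86.7 kb.

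With regions under 3000 bp, median widths were 1796, 1678, 1755 and 1966 bp in that order of lists, score percentiles 45.3, 44.7, 40.9 and 43.2, and spacing 102.5 kb. The log2 ratio of WT doxorubicin over WT mock was −0.16 and of KO doxorubicin over WT doxorubicin 0.0333. Percentile differences were 1.93 for KO doxorubicin against KO mock, −1.999 for WT doxorubicin against WT mock, 5.55 for KO against WT with doxorubicin and 1.39 in mock cells, and regions 20 points lower numbered 25, 137, 90 and 98. In WT cells 28 regions were wider with doxorubicin past 1.5-fold and 83 stood 20 points higher, and in KO against WT with doxorubicin 201 were wider and 160 narrower, where the limit of 5000 bp gave 242 wider and 293 narrower. With 1 peak in each list, widths were 1998, 1881, 1987 and 2194 bp, percentiles 54.0 in WT doxorubicin and 55.6 in WT mock, the WT doxorubicin over WT mock ratio −0.14 and spacing 83.3 kb.

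At a looser limit, a log2 ratio past 0.32, wider and narrower regions numbered 1274 and 255 for KO doxorubicin against KO mock, 222 and 1663 for WT doxorubicin against WT mock, 944 and 983 for KO against WT with doxorubicin, and 127 and 2838 in mock cells. At 2-fold they numbered 38 and 6, 2 and 32, 29 and 52, and 2 and 129. With mean peak scores, regions 20 points lower numbered 150, 425, 277 and 370 in that order of comparisons, and the difference of KO mock against WT mock was 1.65. Under the ceiling in all 4 lists, regions 20 points higher numbered 23, 42, 158 and 110 and those lower 32, 105, 114 and 93, so that the balance for KO doxorubicin against KO mock turned from 477 higher and 44 lower, and the difference of KO against WT with doxorubicin was 4.04. The cause of these moves was not tested. By construction, a lower width limit leaves out the widest regions, and a looser or stricter fold limit gives higher or lower counts. No share over all regions of the 4 lists was counted under the alternatives, so their counts describe the H3K4me3-only regions alone.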
